A study of Mus musculus with 10 samples.

Results

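The genes described here are markers of monocytes, macrophages and granulocytes, measured in cells that had been sorted as B cell precursors. They were taken from a list of 36 names, of which Emr1 is an older name of Adgre1, so the list stands for 35 genes. Each name was matched to the probe sets whose platform annotation gives that single symbol, and each of the 35 genes was measured by 1 probe set, out of 19938 genes named on the array. For this account 21 of them are grouped as macrophage and monocyte genes and 14 as granulocyte genes. RNA came from B220+ cells flow-sorted out of pre-B colonies (CFU-PreB, colonies grown in methylcellulose from single bone marrow precursors) on day 7 of culture. The marrow was from 5 Hspa9+/- mice, called heterozygous, and from 5 wild type littermates (Hspa9+/+), each cultured independently and hybridised to 1 array. Hspa9 encodes the mitochondrial chaperone mortalin. How its allele was disrupted and the age of the mice are not given in the sources used here, and nothing in the labels describes a treatment of either genotype.

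Macrophages and granulocytes descend from a shared myeloid progenitor. Macrophages depend on the receptor Csf1r, take up debris and pathogens through Fc and scavenger receptors, and digest them with lysosomal enzymes. Neutrophils are made in the marrow as promyelocytes filled with primary granules, then add later granules and large amounts of the cytosolic pair S100a8 and S100a9. The sort marker B220 is an isoform of Ptprc carried by B cells and by plasmacytoid dendritic cells, and macrophages and neutrophils are usually without it.

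Values are log2 expression from RMA, a method that corrects the background, brings all arrays to a shared distribution and summarises each probe set, so that 1 unit is a doubling. Array medians ran from 5.38 to 5.49. Hspa9 itself was lower in heterozygous cells, at a mean of 9.18 against 9.92 in wild type cells, a difference of -0.73 (SE 0.185). A two-sided exact permutation test over the 252 splits of the arrays gave p = 0.0159 for it, and in limma across all 14953 genes tested its adjusted p was 0.345. The mean of 15 B lineage genes ran from 10.03 to 10.46 over heterozygous arrays and from 10.34 to 10.49 over wild type arrays. All 35 myeloid genes passed the filter on dim genes, a mean above 4.52, the 25th percentile of all named genes. Several lay close to that value, as Ctsg did with a mean of 4.53 over all arrays, and no detection call was used.

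The myeloid genes differed widely between single arrays of the same genotype. Lyz2, the lysozyme of macrophages and granulocytes, had log2 values of 11.80, 12.87, 11.58, 11.61 and 11.62 in heterozygous arrays 1 to 5. In wild type arrays 1 to 5 it had 12.82, 12.02, 9.66, 8.98 and 8.75. Heterozygous 2 and wild type 1 were highest, the other 4 heterozygous arrays lay close together a little below wild type 2, and wild type 3, 4 and 5 were lowest. Csf1r, the receptor for the macrophage growth factor CSF1, kept this order of levels, with 7.12, 9.47, 7.24, 7.20 and 7.59 in heterozygous arrays and 9.06, 7.78, 5.10, 5.11 and 5.30 in wild type arrays. Between the highest and the lowest array Csf1r differed 20.7-fold and Lyz2 17.4-fold. The genotypes overlapped for both genes.

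**Figure D1:**
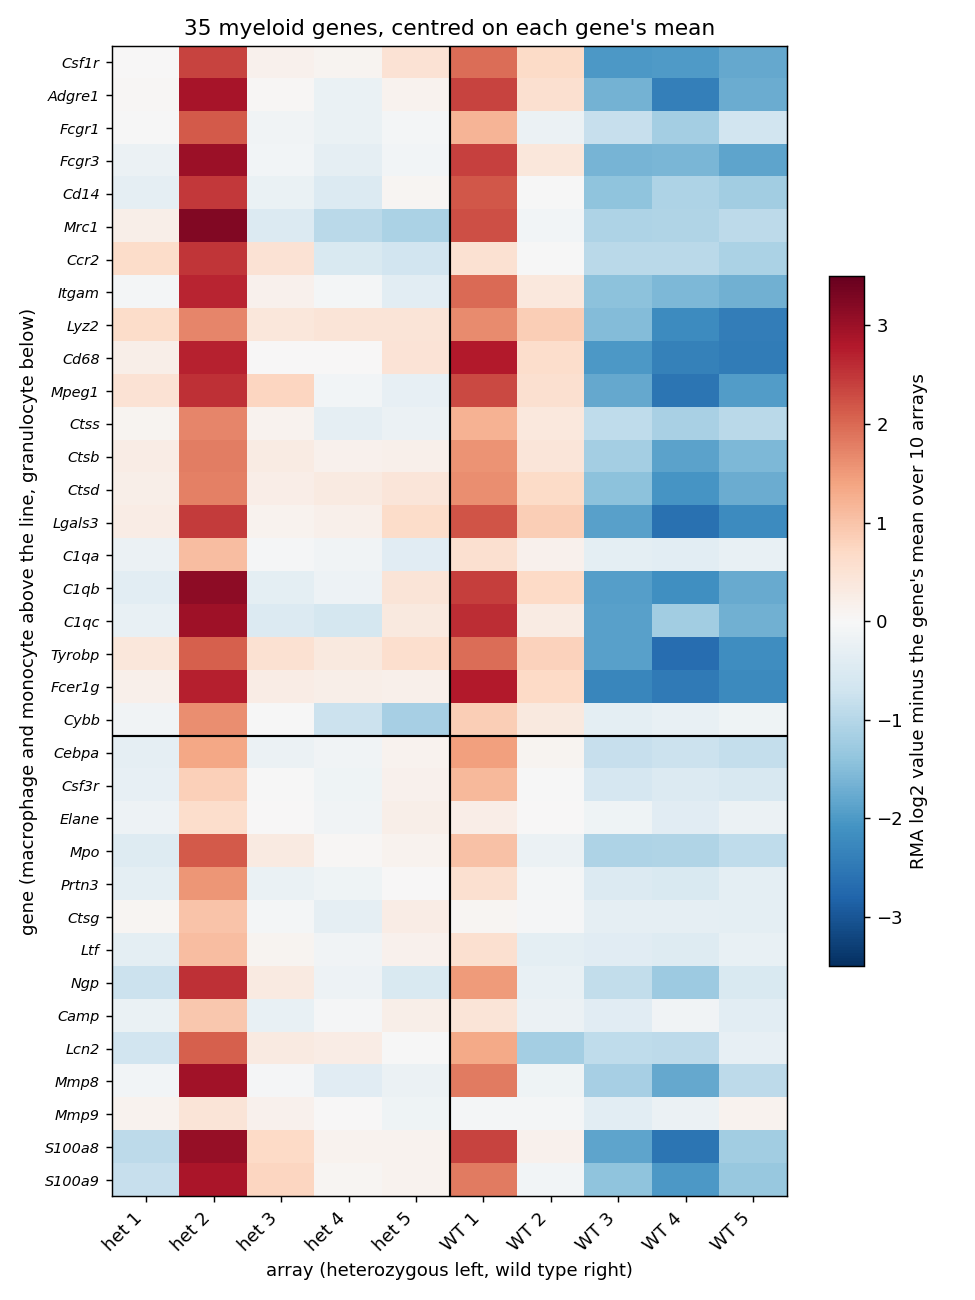
Heat map of the 35 myeloid genes (rows) in 10 arrays (columns, heterozygous left and wild type right). Colour is the RMA log2 value minus the mean of that gene over the 10 arrays. Heterozygous 2 and wild type 1 are the 2 highest arrays in 32 of the 35 genes.

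Counted over genes, heterozygous 2 was the highest array in 31 of the 35 myeloid genes and wild type 1 in the other 4, which were Cd68, Fcer1g, Cebpa and Csf3r. These were the 2 highest arrays, in either order, for 32 of the 35 genes, against 10.7% of all genes tested. The exceptions were Ccr2, Ctsg and Mmp9, whose second highest arrays were heterozygous 1, heterozygous 5 and heterozygous 3. At the other end, wild type 4 was the lowest array in 17 genes and wild type 3 and wild type 5 in 7 each. Heterozygous 5 was the lowest in 3 genes and wild type 2 in 1. Wild type 3, 4 and 5 were together the lowest 3 arrays in 24 of the 35 genes, against 8.77% of all genes tested. That held for 18 of the 21 macrophage and monocyte genes and for 6 of the 14 granulocyte genes. The range over the 10 arrays exceeded 3 log2 units in 24 of the 35 genes, against 1.71% of all genes tested, with a median range of 3.86 against 0.76. The labels give no date or batch for the arrays. With bulk RNA, more cells of a type and more of its RNA per cell cannot be told apart.

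Promoter sequences of members are shown because these genes moved together over the arrays and several are textbook targets of PU.1 (gene Spi1), the ETS-family factor of myeloid and early B cells. The letters searched were GAGGAA on both strands (TTCCTC on the other), a common core of PU.1 sites, in the 250 bases before each RefSeq gene start (build GRCm38.p6). Of the 35 genes, 28 were in the promoter table, with 29 windows. Csf1r, Cd14, C1qa, Ctsb, Tyrobp, Adgre1 and Mmp9 were not. The letters were found in 18 of these 29 windows (62.1%), against 23.3% of all 32851 windows of that length. Of the macrophage and monocyte windows 9 of 16 held them, and of the granulocyte windows 9 of 13. A match is a description of letters and not a bound site. The 120 bases before the start are given for 6 genes that hold the letters in this stretch, chosen after the matches were seen, and for Lyz2, whose window has none. Capitals mark GAGGAA or TTCCTC.
Itgam (chr7:128062520-128062639, + strand): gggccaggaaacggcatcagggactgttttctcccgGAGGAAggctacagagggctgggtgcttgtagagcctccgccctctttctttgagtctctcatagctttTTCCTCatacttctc
Fcgr1 (chr3:96293970-96294089, - strand): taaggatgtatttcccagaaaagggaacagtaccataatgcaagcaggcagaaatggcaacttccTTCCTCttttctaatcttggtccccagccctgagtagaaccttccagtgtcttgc
C1qb (chr4:136886201-136886320, - strand): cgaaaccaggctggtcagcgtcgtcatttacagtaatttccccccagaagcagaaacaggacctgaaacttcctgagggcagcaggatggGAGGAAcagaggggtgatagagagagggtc
S100a8 (chr3:90668951-90669070, + strand): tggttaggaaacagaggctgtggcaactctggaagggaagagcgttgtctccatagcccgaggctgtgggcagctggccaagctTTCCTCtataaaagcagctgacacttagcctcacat
Prtn3 (chr10:79879547-79879666, + strand): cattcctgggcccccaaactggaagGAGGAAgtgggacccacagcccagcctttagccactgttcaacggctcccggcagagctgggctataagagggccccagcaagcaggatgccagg
Elane (chr10:79886192-79886311, + strand): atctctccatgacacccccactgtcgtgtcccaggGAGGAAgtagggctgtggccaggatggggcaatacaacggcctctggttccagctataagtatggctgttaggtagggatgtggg
Lyz2 (chr10:117282273-117282392, - strand): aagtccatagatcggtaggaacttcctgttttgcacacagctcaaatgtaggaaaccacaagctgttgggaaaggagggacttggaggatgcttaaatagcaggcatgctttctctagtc
In the adjacent genes Prtn3 and Elane the letters lie 95 and 85 bases before the start on the gene strand. Itgam holds them at 84 bases on the gene strand and at 15 bases on the other strand. Spi1 itself, named here because its letters were searched, had the same 2 highest arrays as most of the myeloid genes. Of all genes tested, 10.7% had these 2 arrays on top. Spi1 had 8.18, 9.59, 8.47, 9.06 and 8.91 in heterozygous arrays and 9.57, 9.33, 8.36, 8.44 and 8.78 in wild type arrays. Heterozygous 1 was thus its lowest array, below wild type 3, 4 and 5. Its difference between genotypes was -0.06 (SE 0.3, limma adjusted p = 0.943).

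Surface receptors of macrophages and monocytes all had their highest value in heterozygous 2, and all 8 ranged over more than 3 log2 units. Adgre1, the F4/80 antigen of tissue macrophages, had 6.57, 9.41, 6.58, 6.30 and 6.67 in heterozygous arrays and 8.90, 7.09, 4.88, 4.15 and 4.79 in wild type arrays. Fcgr3, the low-affinity IgG receptor, reached 10.28 in heterozygous 2 and 9.70 in wild type 1, with the other heterozygous arrays from 6.99 to 7.21. Itgam, the CD11b integrin chain, followed with 9.43 in heterozygous 2, and from 6.39 to 6.90 in the other heterozygous arrays, against 8.74 in wild type 1 and 5.09 to 7.14 in the other wild type arrays. Both genes thus had the same 2 arrays on top. Cd14, the coreceptor for bacterial lipopolysaccharide, had 5.62, 8.40, 5.69, 5.44 and 6.0 in heterozygous arrays and 8.11, 5.91, 4.52, 4.84 and 4.72 in wild type arrays. Fcgr1, the high-affinity IgG receptor, had 5.52, 7.67, 5.4, 5.29 and 5.47 in heterozygous arrays and 6.72, 5.33, 4.73, 4.35 and 4.86 in wild type arrays. In Fcgr1 wild type 2 lay among the heterozygous arrays.

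The mannose receptor Mrc1 and the monocyte chemokine receptor Ccr2 departed from that order among the remaining arrays. Mrc1 had 5.67, 8.71, 4.98, 4.51 and 4.35 in heterozygous arrays and 7.72, 5.36, 4.38, 4.40 and 4.56 in wild type arrays. Heterozygous 4 and 5 were thus at the level of wild type 3, 4 and 5. Ccr2 had 5.95, 7.82, 5.83, 4.77 and 4.64 in heterozygous arrays and 5.86, 5.30, 4.38, 4.37 and 4.22 in wild type arrays. Wild type 1, near the top for the other receptors, lay between heterozygous 1 and 3 for Ccr2.

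Lysosomal and effector genes of macrophages had wild type 3, 4 and 5 as their lowest 3 arrays in 7 of 7 cases, against 8.77% of all genes. Cd68, a glycoprotein of macrophage lysosomes, had 9.37, 11.88, 9.20, 9.20 and 9.66 in heterozygous arrays and 11.94, 9.78, 7.17, 6.80 and 6.74 in wild type arrays. The galactose-binding lectin Lgals3 had 10.33, 12.54, 10.20, 10.25 and 10.72 in heterozygous arrays and 12.29, 10.94, 8.18, 7.47 and 7.89 in wild type arrays. In both, no heterozygous array came within 1 unit of wild type 3, 4 or 5, and wild type 1 and 2 lay at or above most heterozygous arrays. Mpeg1, the pore-forming perforin-2 of phagocytes, had 8.15, 10.21, 8.42, 7.56 and 7.37 in heterozygous arrays and 9.97, 8.22, 5.87, 5.10 and 5.69 in wild type arrays. The aspartic protease Ctsd had 11.33, 12.89, 11.34, 11.43 and 11.54 in heterozygous arrays and 12.75, 11.79, 9.67, 9.04 and 9.37 in wild type arrays. Ctsb, a cysteine protease of the same organelle, ranged over 3.65 units with the same 2 arrays on top. Ctss, the cathepsin that trims the invariant chain and is also made by B cells, ranged over 2.84, the least of this group.

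The complement chains C1qa, C1qb and C1qc lie side by side in the genome and are secreted together by macrophages as C1q. C1qb had 6.18, 9.68, 6.20, 6.35 and 7.00 in heterozygous arrays and 8.95, 7.24, 4.61, 4.40 and 4.79 in wild type arrays. C1qc ran in parallel, with 9.70 in heterozygous 2 and 6.12 to 7.07 in the other heterozygous arrays, against 9.32 in wild type 1 and 4.83 to 7.03 in the other wild type arrays. C1qa kept the same top arrays at 6.68 and 6.16 but ranged over 1.47 units only, with all other arrays between 5.21 and 5.75. Each of the 3 chains was measured by a single probe set.

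Of the signalling partners, Tyrobp (DAP12) and Fcer1g, adaptors that couple Fc and other receptors to Syk, had wide ranges of 4.75 and 5.26. Tyrobp had 10.35, 12.04, 10.49, 10.29 and 10.53 in heterozygous arrays and 11.90, 10.76, 8.03, 7.29 and 7.76 in wild type arrays. Fcer1g had 9.37, 11.90, 9.44, 9.39 and 9.36 in heterozygous arrays and 11.96, 9.87, 6.90, 6.70 and 6.95 in wild type arrays. In both adaptors the 4 other heterozygous arrays lay close together, between wild type 2 and wild type 3, 4 and 5. Cybb, the catalytic chain of the phagocyte oxidase, which B cells also carry, behaved differently. It had 8.56, 10.30, 8.66, 7.92 and 7.51 in heterozygous arrays and 9.55, 9.02, 8.33, 8.42 and 8.53 in wild type arrays. Its lowest arrays were heterozygous 5 and 4, and wild type 3, 4 and 5 lay just below heterozygous 1 and 3. Cybb was the single gene of the 35 whose mean was lower in heterozygous cells.

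**Figure D2:**
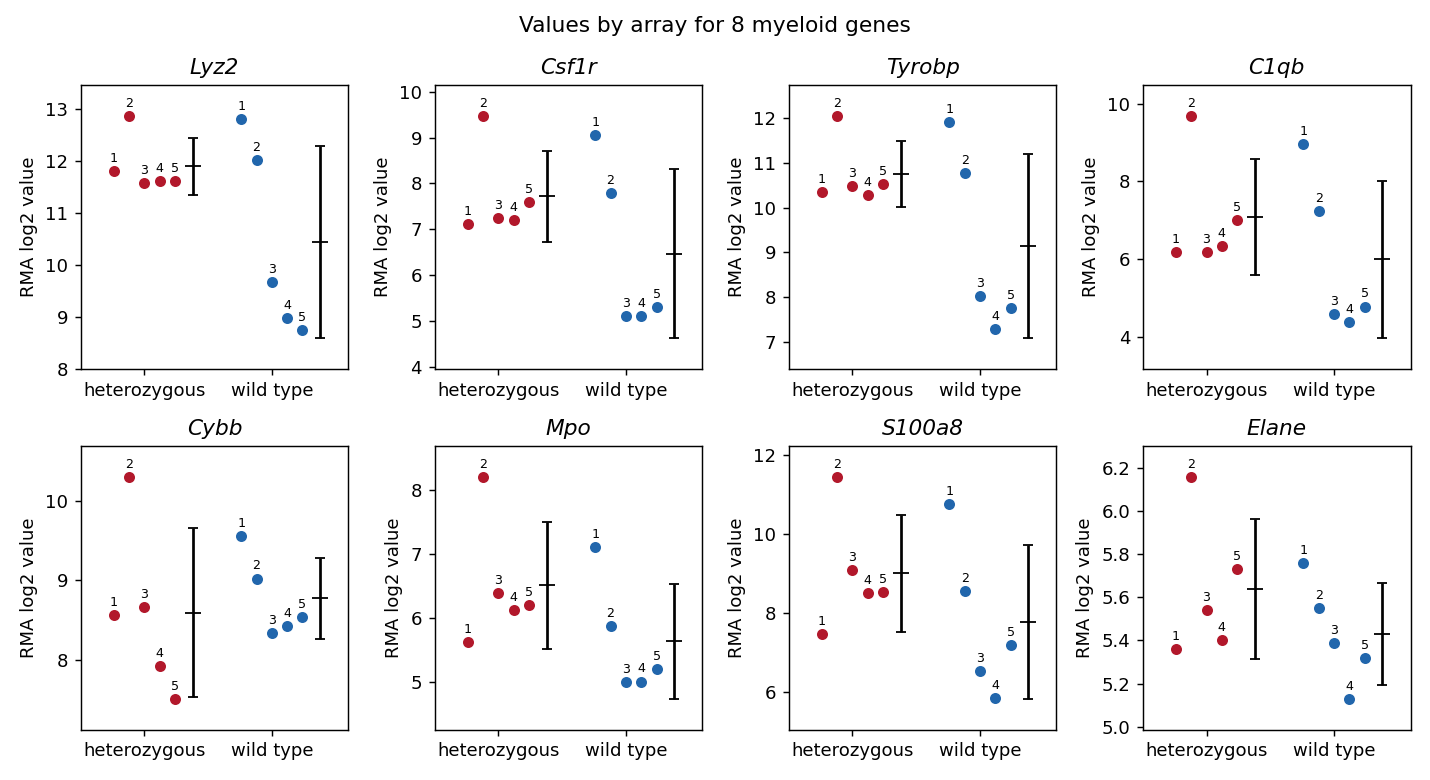
RMA log2 value of 8 myeloid genes in each heterozygous (red, left) and wild type (blue, right) array. The numbers are the replicate numbers, and the black bars give the mean and SD of 5 arrays. Heterozygous 2 is above the other heterozygous arrays in all 8 panels, and in Cybb heterozygous 4 and 5 are the lowest arrays.

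Granulocyte genes had a smaller median range, 2.17 log2 units against 4.36 for the macrophage and monocyte genes. Several were dim, such as Ctsg, Mmp9 and Ltf at means of 4.53, 4.80 and 4.88, near the filter value of 4.52. The brighter S100a8 and S100a9, at means of 8.39 and 8.35, ranged over 5.59 and 4.86. Mmp8 ranged over 4.73 at a mean of 5.56. The factor Cebpa, required to make granulocytes, and the receptor Csf3r for the granulocyte growth factor G-CSF were both highest in wild type 1. Cebpa had 6.10, 7.79, 6.22, 6.31 and 6.55 in heterozygous arrays and 7.85, 6.52, 5.63, 5.68 and 5.58 in wild type arrays. Csf3r ran from 4.84 to 5.95 in heterozygous and from 4.52 to 6.24 in wild type arrays, with the same 2 arrays on top.

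Primary granule genes were highest in heterozygous 2 in all 4 cases. Mpo, the myeloperoxidase of promyelocytes, had 5.62, 8.20, 6.39, 6.11 and 6.19 in heterozygous arrays and 7.10, 5.87, 4.99, 5.00 and 5.19 in wild type arrays. The serine protease Prtn3 reached 6.87 in heterozygous 2 and 5.90 in wild type 1, and the other 8 arrays lay between 4.79 and 5.34. The adjacent Elane, neutrophil elastase, reached 6.16 and 5.76 in these arrays, with the others from 5.13 to 5.73. Ctsg, the cathepsin of the same granules, was at 5.53 in heterozygous 2 and between 4.19 and 4.80 in all others, wild type 1 included at 4.59.

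Among later granule and cytosolic genes, the calprotectin chains S100a8 and S100a9, adjacent in the genome, had the widest ranges. S100a8 had 7.47, 11.45, 9.08, 8.52 and 8.53 in heterozygous arrays and 10.76, 8.55, 6.54, 5.85 and 7.19 in wild type arrays, a span of 48.3-fold. S100a9 had 7.55, 11.21, 9.11, 8.43 and 8.46 in heterozygous arrays and 10.17, 8.25, 6.95, 6.35 and 7.02 in wild type arrays. For both chains heterozygous 1 was the lowest heterozygous array by about 1 unit, which was not so for Lyz2 or Mpeg1. The siderophore-binding Lcn2 had 5.38, 8.14, 6.35, 6.31 and 6.03 in heterozygous arrays and 7.36, 4.85, 5.15, 5.12 and 5.76 in wild type arrays. Wild type 2 was therefore the lowest of all arrays for Lcn2, although it was the third highest for Csf1r and Lyz2. Ngp, a granule protein related to cathelicidin, reached 8.80 and 7.75 in heterozygous 2 and wild type 1 and 4.98 to 6.57 elsewhere. The collagenase Mmp8 had 5.47, 8.49, 5.51, 5.17 and 5.35 in heterozygous arrays and 7.39, 5.4, 4.40, 3.76 and 4.65 in wild type arrays. Both genes had the same 2 arrays on top. Lactoferrin (Ltf), the cathelicidin Camp and the gelatinase Mmp9 ranged over 1.55, 1.33 and 0.84 units.

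The arrays were ranked within each gene, from 1 for the lowest to 10 for the highest, to compare macrophage and granulocyte genes. Heterozygous 2 had a median rank of 10 and wild type 1 of 9 in both groups. Wild type 2 had a median rank of 8 over the 21 macrophage and monocyte genes (5 to 8) and of 6 over the 14 granulocyte genes (1 to 7). Heterozygous 1 had a median rank of 6 in the macrophage and monocyte genes and of 4 in the granulocyte genes, while heterozygous 3 and heterozygous 5 each had 6 and 7.5. Over all genes tested the median ranks of the arrays lay between 4 and 7. These ranks are a description, since genes of 1 array share its RNA.

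Between genotypes, 34 of the 35 genes had a higher mean in heterozygous cells, and no difference passed the test. In limma with Benjamini-Hochberg adjustment over 14953 genes, 0 of 35 had an adjusted p under 0.05 (0% of all genes tested), and the smallest was 0.492, for Lyz2. At an unadjusted p under 0.05 there were also 0 of 35, against 11% of all genes (6.79% higher and 4.25% lower in heterozygous cells). The genotypes were apart, with no overlap of arrays, in 0 of 35 genes, against 2.28% of all genes. The heterozygous mean was the higher one in 61.3% of all genes. The median difference was 0.87 over the 35 genes, 1.05 over the macrophage and monocyte genes and 0.37 over the granulocyte genes, against 0.06 over all genes. The SEs were large, with a median of 0.681 over the 35 genes against 0.142 over all genes.

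Tyrobp had the largest difference of the 35, at means of 10.74 ± 0.734 in heterozygous and 9.15 ± 2.05 in wild type cells (SD, n = 5 each), a difference of 1.59 with a 95% interval from -0.24 to 3.43. Lyz2 averaged 11.90 ± 0.552 in heterozygous and 10.45 ± 1.85 in wild type cells (SD, n = 5 each), a difference of 1.45 (-0.18 to 3.08). Lgals3 also differed by 1.45 (-0.53 to 3.43), Fcer1g by 1.42 (-0.77 to 3.61), Cd68 by 1.38 (-0.78 to 3.54) and Mpeg1 by 1.37 (-0.60 to 3.35). Csf1r differed by 1.26 (-0.50 to 3.02) and Adgre1 by 1.14 (-0.85 to 3.14). Of the granulocyte genes S100a8 was at 1.23 (-0.83 to 3.29), S100a9 at 1.2 (-0.53 to 2.94), Mmp8 at 0.88 (-0.79 to 2.55) and Mpo at 0.87 (-0.26 to 2.00). The smallest positive differences were those of C1qa at 0.13 (-0.48 to 0.74), Elane at 0.21 (-0.16 to 0.58) and Csf3r at 0.21 (-0.52 to 0.93), and Cybb was at -0.18 (-1.18 to 0.82). Each interval includes 0, and the widths differ, so that the upper bound is above 3 for genes such as Tyrobp and Lyz2 and below 1 for C1qa, Elane and Csf3r.

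**Figure D3:**
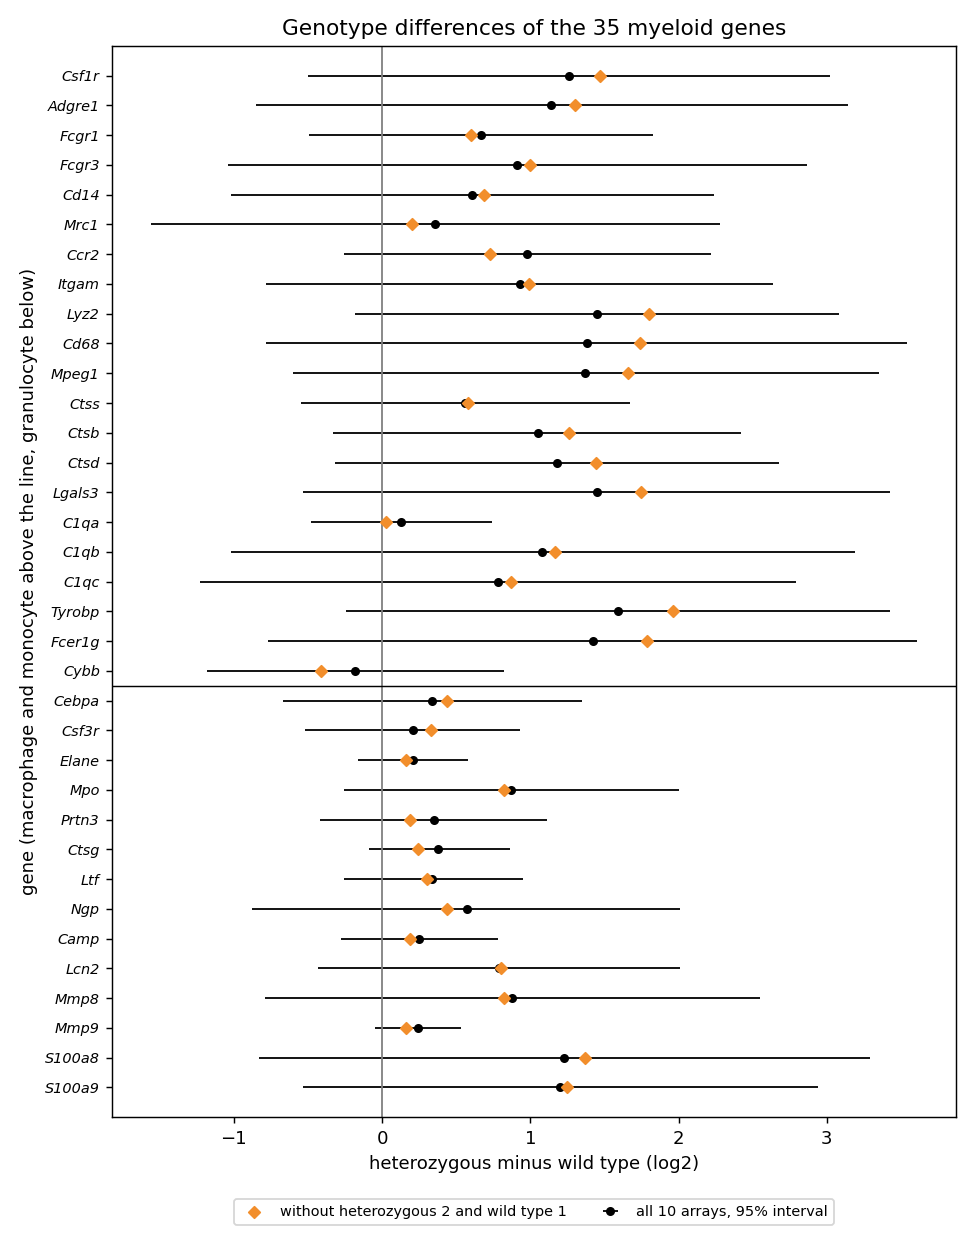
Heterozygous minus wild type difference (log2, horizontal) of the 35 myeloid genes. Black points with bars are estimates from all 10 arrays with 95% intervals, and orange diamonds are estimates without heterozygous 2 and wild type 1. Every interval includes 0, and 34 of 35 black points lie to the right of it.

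These differences rested on which of the outermost arrays was included. Without heterozygous 2 the median difference over the 35 genes was 0.28, with 0 genes at an unadjusted p under 0.05 (12.8% of all genes). Without wild type 1 it was 1.24, with 20 of 35 genes at that level (15% of all genes). Without both arrays it was 0.82, again with 20 of 35 (16.1% of all genes), made up of 14 of the 21 macrophage and monocyte genes and 6 of the 14 granulocyte genes. In none of these fits did a gene of the 35 pass the adjusted threshold, where 0.0201% of all genes did without heterozygous 2, 0.147% without wild type 1 and 0.174% without both. The genotypes still overlapped in all 35 genes in each of the 3 fits, where 5.12%, 5.4% and 8.65% of all genes did not, in the same order. With array weights, which count the more variable arrays less, 18 of the 35 genes had an unadjusted p under 0.05 (20.6% of all genes) and 0 passed adjustment. Without wild type 4 the median difference of the macrophage and monocyte genes was 0.69. Without both heterozygous 2 and wild type 1, Tyrobp differed by 1.96 (SE 0.622, limma adjusted p = 0.223) and Lyz2 by 1.80 (SE 0.593, limma adjusted p = 0.23), with Lyz2 at 11.65 in heterozygous and 9.85 in wild type cells. Mpo had the smallest adjusted p of the 35 there, at a difference of 0.82 (SE 0.224, limma adjusted p = 0.176). Mrc1, by contrast, was at 0.36 over all arrays, at -0.40 without heterozygous 2 and at 0.20 without both.

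Further macrophage genes, not in the list above, had the same arrays on top. Of 35 other macrophage genes 32 were measured and 29 tested. None passed the adjusted test, and 0 had an unadjusted p under 0.05, against 11% of all genes tested. Heterozygous 2 and wild type 1 were the 2 highest arrays in 26 of the 29, against 10.7% of all genes. Gpnmb, a lysosomal glycoprotein of macrophages, had 11.45, 12.89, 11.47, 11.40 and 11.49 in heterozygous arrays and 12.81, 11.61, 9.28, 8.43 and 7.66 in wild type arrays, a difference of 1.78 (SE 0.869, limma adjusted p = 0.474). The lysosomal protease Ctsl differed by 2.00 (SE 1, limma adjusted p = 0.483), and Axl, a receptor for the clearance of dying cells, by 0.45 (SE 0.245). Progranulin (Grn), of the highest mean in that list, differed by 0.58 (SE 0.424).

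Of 22 other neutrophil genes, which include Chi3l3 as an older name of Chil3, 19 were measured and 14 tested. The 2 highest arrays were heterozygous 2 and wild type 1 in 4 of these 14 (28.6%), against 10.7% of all genes. None passed the adjusted test and 1 had an unadjusted p under 0.05, against 11% of all genes tested. That was haptoglobin (Hp), with 4.96, 6.18, 5.28, 5.11 and 5.47 in heterozygous arrays and 5.05, 4.93, 4.94, 4.62 and 4.73 in wild type arrays (limma adjusted p = 0.403). Gca differed by 0.24 and Mgst2 by 0.31.

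Of 11 myeloid transcription factors tested, 0 passed the adjusted test and 1 had an unadjusted p under 0.05, against 11% of all genes tested. That gene was Irf8, a factor of monocytes, dendritic cells and B cells, with 9.58, 9.83, 9.90, 9.79 and 9.84 in heterozygous arrays and 9.71, 9.91, 9.16, 8.96 and 9.20 in wild type arrays. Heterozygous 2 did not stand out for it, and wild type 3, 4 and 5 were again lowest. Egr2 differed by 0.41 and Nr1h3 by 0.32. Of 9 growth factor receptors, 0 passed and 3 had an unadjusted p under 0.05, against 11% of all genes. These were Il10ra (-0.44) and Il6ra (-0.30), lower in heterozygous cells, and Kit (0.46), higher in them. The shared chain Csf2rb, highest in mean, was at 0.28. Of 14 cytokine and chemokine genes tested, 0 passed and 1 had an unadjusted p under 0.05, against 11% of all genes. That was Tnf at 0.49, with Nos2 at 0.21 and Arg1 at -0.17. The chemokine Ccl3, highest in mean, had 7.96, 11.25, 7.64, 7.01 and 7.65 in heterozygous arrays and 10.52, 8.12, 5.38, 4.98 and 5.76 in wild type arrays. Heterozygous 2 and wild type 1 were the 2 highest arrays in 8 of the 11 transcription factors and 5 of the 9 receptors. They were so in 9 of the 14 cytokine and chemokine genes, against 10.7% of all genes.

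Marker lists of other cells moved with the myeloid genes in part, and their part in these values was not tested. The mean of 6 megakaryocyte genes was 5.64, 7.11, 5.70, 5.42 and 6.15 in heterozygous arrays and 7.03, 5.64, 5.15, 5.21 and 5.25 in wild type arrays. Within it the platelet factor Pf4 had 11.38 in heterozygous 2 and 10.76 in wild type 1 and from 4.80 to 7.59 in the others, while Gp9 and Treml1 stayed between 5.22 and 6.04 on every array. The mean of 6 plasmacytoid dendritic cell genes was 7.64, 8.55, 8.0, 7.28 and 7.08 in heterozygous arrays and 7.35, 7.41, 6.48, 6.43 and 6.29 in wild type arrays. Here heterozygous 2 was again highest and wild type 3, 4 and 5 lowest, but wild type 1 lay below heterozygous 1, 2 and 3. Siglech of that list differed by 1.63 (SE 0.477, limma adjusted p = 0.349), Bst2 by 0.72 and Pacsin1 by 0.46. The mean of conventional dendritic cell genes ran from 6.28 to 6.88 in heterozygous and from 5.79 to 6.71 in wild type arrays, and that of eosinophil genes from 5.46 to 6.14 in heterozygous and from 5.26 to 6.11 in wild type arrays. The mean of mast cell and basophil genes ran from 5.26 to 5.50 in heterozygous and from 5.19 to 5.45 in wild type arrays, and that of erythroid genes from 5.05 to 5.38 in heterozygous and from 4.86 to 5.32 in wild type arrays. Stroma genes averaged 5.42 to 5.64 in heterozygous and 5.18 to 5.45 in wild type arrays, and T cell and NK cell genes 5.79 to 6.02 in heterozygous and 5.35 to 5.63 in wild type arrays. These 4 lists had heterozygous 2 and wild type 1 as the 2 highest arrays in 1 of 3, 0 of 5, 0 of 5 and 0 of 6 genes, in that order. It was so in 2 of 6 megakaryocyte, 1 of 6 plasmacytoid dendritic cell and 1 of 6 conventional dendritic cell genes. Of the eosinophil genes 2 of 5 had this pattern, against 10.7% of all genes. No gene of these lists passed the adjusted test. An unadjusted p under 0.05 was found in 4 of 6 plasmacytoid dendritic cell genes, 4 of 6 T cell and NK cell genes, 3 of 6 conventional dendritic cell genes, 2 of 5 eosinophil genes and 1 of 5 stroma genes, and in 0 megakaryocyte, erythroid or mast cell and basophil genes, against 11% of all genes tested. Of the T cell and NK cell genes, Nkg7, of cytotoxic granules, had 5.78, 5.24, 5.84, 5.72 and 5.68 in heterozygous arrays and 5.09, 5.03, 5.22, 4.93 and 4.57 in wild type arrays, without overlap (limma adjusted p = 0.289). The genotypes did not overlap in 3 of the 6 genes of that list, all higher in heterozygous cells, against 2.28% of all genes in either direction.

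As a list, the B lineage genes did not follow the myeloid order. Their 15-gene mean was 10.40, 10.16, 10.46, 10.27 and 10.03 in heterozygous arrays and 10.49, 10.42, 10.45, 10.44 and 10.34 in wild type arrays, with wild type 1 the highest of all. Heterozygous 2 and wild type 1 were the 2 highest arrays in 1 of the 15 genes, against 10.7% of all genes tested. Wild type 3, 4 and 5 were the lowest 3 arrays in 3 of the 15, against 8.77%. The pre-B gene Vpreb3 lay between 12.17 and 12.51 on every array. Ptprc, the gene of the sort marker, had 9.61, 9.76, 9.37, 8.33 and 7.89 in heterozygous arrays and 9.57, 9.35, 9.89, 10.07 and 9.47 in wild type arrays (limma adjusted p = 0.49), so that heterozygous 4 and 5, with intermediate levels of most macrophage genes, had the lowest Ptprc. These are gene-level values, which do not set the B220 isoform apart and so do not measure the sort. Of the 15 genes, 2 were higher and 3 lower in heterozygous cells at an unadjusted p under 0.05, against 11% of all genes tested. Among the B lineage genes of smallest p were Cd22 at -0.98 (SE 0.23), Rag1 at -0.79 (SE 0.231) and Dntt at 1.49 (SE 0.443), none past the adjusted test (limma adjusted p = 0.345, 0.349 and 0.349). Dntt had 10.40, 10.24, 10.48, 10.25 and 10.40 in heterozygous arrays. In wild type arrays it had 10.33, 9.41, 9.01, 8.27 and 7.31, with wild type 3, 4 and 5 lowest.

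**Figure D4:**
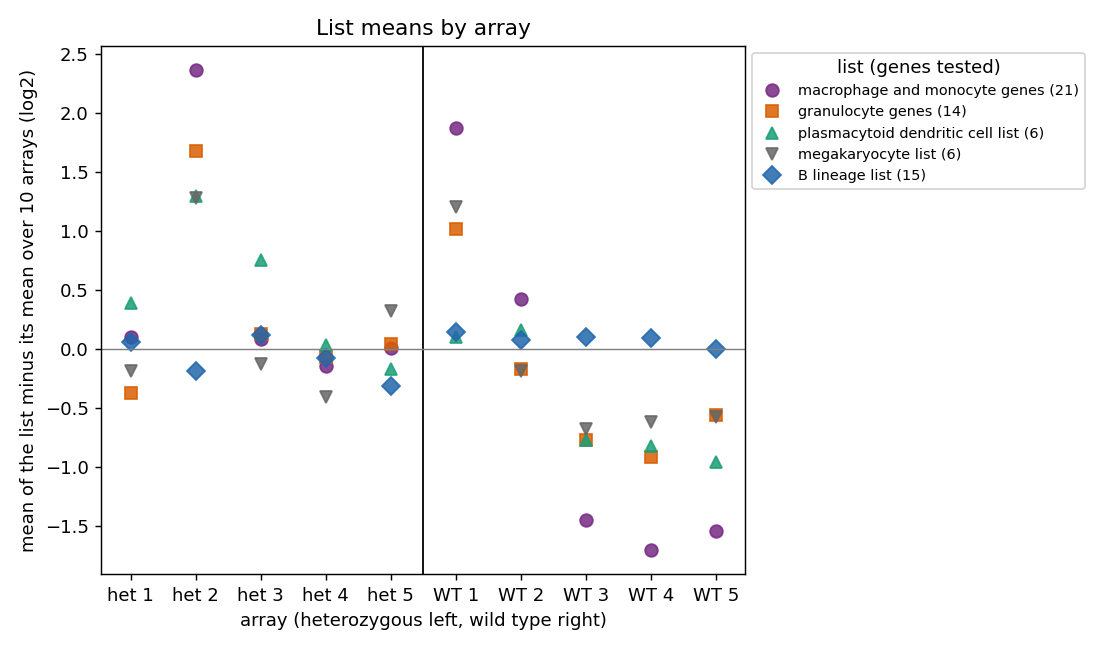
Mean of each gene list by array (heterozygous left, wild type right), minus the list's mean over the 10 arrays (log2). The macrophage and monocyte genes spread most, from wild type 4 at the bottom to heterozygous 2 at the top. The mean of the B lineage list spreads least and is lowest in heterozygous 5.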

How the data were processed

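Gene-level expression was made by the authors with RMA in Affymetrix Expression Console and deposited on the log2 scale, per the labels. The software version and genome build of that step are not given in the sources used here. The table held 35556 probe sets on 10 arrays, 1 per mouse, each column matched to its sample by accession. The number of arrays limits the precision. Of these probe sets 21789 had 1 gene symbol in the platform annotation; 1621 with several symbols and 12146 without an entry stayed unnamed. Names were updated by Entrez identifier through the RefSeq table of GRCm38.p6 (21698 matched), which was otherwise used for which genes neighbour each other. Per symbol the probe set of highest mean was kept (19938 genes). A gene was tested if its mean exceeded the 25th percentile of these (4.52), which held for 14953.

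Genotypes were compared in limma 3.58.1 under R 4.3.3 with lmFit and eBayes; differences are heterozygous minus wild type. P-values were adjusted by Benjamini-Hochberg over the 14953 genes, at a threshold of 0.05. SEs are moderated and intervals are 95%. Promoter sequences are RefSeq's. Of the steps, the limma fit alone was tested on simulated data with known shifts. Noise there was independent for each gene, unlike the myeloid genes, which moved together over the arrays. The myeloid genes and the other lists were chosen with earlier results of these data known. Named genes were all measured members, Hspa9, Ptprc, and per other list up to 3 genes of smallest p and the one of highest mean; of lists given as means by array, not all such genes are named. Spi1 was added after its values were seen. Alternatives were other filters, probe set rules, normalizations, variance models, array weights, a block for the replicate number, and arrays left out. That heterozygous 2 and wild type 1 were also left out together was decided with their myeloid values known.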

Additional observations from a re-analysis of the deposited data

Results flagged for a closer look

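Heterozygous 2 stood apart from the other 4 heterozygous arrays in 20 of the 35 myeloid genes. The measure is the gap between the outermost array and its nearest neighbour, as a share of the whole range of the genotype, with a limit of 0.71 for 5 arrays. Chance passes that limit in about 1 of 20 groups, counting any of the 5 arrays at either end. Counted in that way, 8.45% of all genes tested passed it in the heterozygous arrays. For heterozygous 2 at the top alone, chance would pass it less often. Over all genes tested, heterozygous 2 was above the other heterozygous arrays by that measure in 4.35%, against 57.1% of the 35 genes. These 20 genes share the RNA of 1 array, so they are not 20 separate cases to set against the rate by chance. For surface receptors the share was Csf1r 0.802, Adgre1 0.883, Fcgr1 0.902, Fcgr3 0.931, Cd14 0.813 and Itgam 0.832. For lysosomal and effector genes it was Lyz2 0.831, Cd68 0.828, Ctss 0.788, Ctsb 0.918, Ctsd 0.869 and Lgals3 0.778. For C1q chains and adaptors it was C1qa 0.761, C1qb 0.767, C1qc 0.734, Tyrobp 0.861 and Fcer1g 0.966. For granulocyte genes it was Cebpa 0.735, Prtn3 0.814 and Mmp8 0.898. Of genes outside the list, heterozygous 2 was set apart at the top in Gpnmb 0.944, Ctsl 0.802, Grn 0.747, Egr2 0.753, Nr1h3 0.824, Ccl3 0.777 and Pf4 0.754.

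In wild type arrays a single gene of the 35 passed the limit, Ltf, with wild type 1 highest (0.805). Cd22 was lowest in wild type 1 (0.838), and Rag1 was highest in wild type 5 (0.728).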

How the results depend on the processing

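Of 654 refits of single myeloid genes over 19 alternative settings, 649 kept the sign of the difference and none passed the adjusted threshold. Over leaving out each array in turn, the 4 genes that changed sign ran from -0.13 to 0.28 (C1qa), from -0.61 to 0.09 (Cybb), from -0.40 to 0.97 (Mrc1) and from -0.0024 to 1.01 (Ngp). The cause was not tested. The median difference over the 35 genes ran from 0.28 to 1.24 over these fits, lowest without heterozygous 2 and highest without wild type 1. The number of the 35 at an unadjusted p under 0.05, 0 in the reported fit, was 18 with array weights (20.6% of all genes), 20 without wild type 1 and heterozygous 2 (16.1%), and from 0 to 20 without single arrays, with 1 without heterozygous 4 (9.54%), 2 without heterozygous 5 (7%), 2 without wild type 2 (13.6%) and 20 without wild type 1 (15%). The count of all genes past the adjusted threshold, 0 in the reported fit with 1650 genes at an unadjusted p under 0.05, was 137 with array weights, 26 without both of these arrays and from 0 to 22 without single arrays (22 without wild type 1, 3 without heterozygous 2). With array weights Hspa9 differed by -0.79 and passed (limma adjusted p = 0.0381); without single arrays it ran from -0.84 to -0.62. With the replicate number as a block, the median difference was 0.87, 3 of the 35 genes had an unadjusted p under 0.05 (8.96% of all genes) and 0 genes passed adjustment. The labels do not say that a number marks a shared litter or day, 3 of 5 same-numbered pairs had deviations correlated above 0.1 (r from -0.53 to 0.53), and 0 of 5 heterozygous arrays correlated best with the wild type array of its own number. Over only the genes above the 50th percentile, the granulocyte median was 0.79 against 0.37, since fewer of its genes remained. RMA removes shifts shared by most genes, and genes near 4.52 may understate differences.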
